A study of Mus musculus with 53 samples.

Results

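The T-box genes described here were *Tbx1*, *Tbx2*, *Tbx3*, *Tbx4*, *Tbx5*, *Tbx15*, *Tbx18* and *Tbx20*. They were found on a whole-transcriptome mouse array by the symbol that the platform annotation gives each probe set. This took 8 of 17097 named genes and 16 of 45037 probe sets, and each was followed over 53 arrays in 9 groups. The study built a mouse model of synovial sarcoma from the fusion gene *SS18-SSX1*, the oncogene of this tumor, and asked which genes, *miR-214* among them, cooperate with it. Embryonic mesenchymal cells (eMCs) were taken from the soft part of the limbs of BALB/c embryos late in gestation and infected with a pMYs-IRES-GFP retrovirus that was either empty (4 arrays) or carried FLAG-tagged human *SS18-SSX1* (4 arrays), and both were profiled at 48 h. Tumors grew from eMCs under the skin of nude mice, hosts that lack T cells but keep their own stroma, blood vessels and macrophages. The eMCs of the SS tumors carried *SS18-SSX1* alone (12 arrays), and those of the SS214 tumors carried *SS18-SSX1* together with *miR-214* (13 arrays). SS40 and SS64, each a single line of mouse synovial sarcoma cells, had received either a negative control (NC) or *miR-214*, with 4 arrays for each. A pool of normal mouse tissues, called the tissue mix here, contributed 4 arrays and drew on heart, skeletal muscle, lung, skin, brain, liver, kidney, intestine, ovary and bone marrow. Nothing in the labels says that arrays of the eMCs, of the lines or of the tissue mix came from separate cultures or animals, so the p-values of those groups measure the spread between arrays, which may be technical.

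T-box proteins are transcription factors that bind DNA through a shared domain, the T-box. They set the identity of tissues in the embryo, above all in the limbs, heart, pharynx and body wall. *Tbx5* and *Tbx4* start the outgrowth of the forelimb and the hindlimb, and *Pitx1* acts upstream of *Tbx4* in the hindlimb. *Tbx2* and *Tbx3* are repressors that pattern the limb margins and the cardiac conduction system and hold back cell cycle inhibitors such as *Cdkn2a*. *Tbx15* shapes the limb skeleton and the dermis, *Tbx18* marks epicardium, ureter mesenchyme and vascular mural cells, *Tbx20* is needed for growth of the heart chambers, and *Tbx1* patterns the pharyngeal arches.

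The added RNA of the study was *miR-214*, so both of its mature arms are shown here, with the seed (bases 2 to 8) in capitals. They lie on the plus strand of mouse chromosome 1 in GRCm38.p6, at chr1:162223397-162223418 and chr1:162223438-162223459, and are credited to RefSeq.
mmu-miR-214-5p: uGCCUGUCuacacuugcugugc
mmu-miR-214-3p: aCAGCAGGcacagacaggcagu
Their seeds differ. The promoter windows of *Tbx18* and *Tbx20* are shown because both genes were called higher in SS40 cells than in eMCs, and *Tbx20* also in SS64 cells, as given later. Each window runs from 250 bases before to 50 bases after the RefSeq start in GRCm38.p6, on the minus strand of chromosome 9, at chr9:87731211-87731510 for *Tbx18* and chr9:24774254-24774553 for *Tbx20*. Capitals mark matches, on either strand, of GGTGTGA (part of the T-box binding site), CCAAT or GGGCGG (a GC box).
Tbx18: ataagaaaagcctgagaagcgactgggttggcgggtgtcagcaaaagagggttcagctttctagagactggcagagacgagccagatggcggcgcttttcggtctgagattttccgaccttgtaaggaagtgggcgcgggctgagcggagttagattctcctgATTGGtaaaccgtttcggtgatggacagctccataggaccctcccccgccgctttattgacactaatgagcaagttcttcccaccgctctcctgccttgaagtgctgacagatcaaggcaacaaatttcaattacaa
Tbx20: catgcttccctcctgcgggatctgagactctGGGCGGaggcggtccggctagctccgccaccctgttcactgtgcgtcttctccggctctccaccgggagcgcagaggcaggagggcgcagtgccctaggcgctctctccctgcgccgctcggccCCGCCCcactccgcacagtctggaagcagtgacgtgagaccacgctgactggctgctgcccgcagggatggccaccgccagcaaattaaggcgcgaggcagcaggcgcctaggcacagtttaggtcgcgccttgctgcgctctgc
The *Tbx18* window held 1 CCAAT match and no GC box, and the *Tbx20* window held 2 GC boxes and no CCAAT. No match of GGTGTGA was present in either, a motif found in 3.98% of 32851 mouse promoter windows of the same length. CCAAT was found in 37.4% of these windows and GGGCGG in 35.7%. The *Tbx18* window held 15 CpG and the *Tbx20* window 26, against a median of 7, and 65.4% and 83.1% of all windows held fewer. Promoters were listed for 4 of the 8 genes, and those of *Tbx2*, *Tbx3*, *Tbx5* and *Tbx15* are not printed. On the chromosomes, *Tbx2* and *Tbx4* are neighbours on chromosome 11 and *Tbx3* and *Tbx5* on chromosome 5, with 0 protein-coding genes starting between the members of either pair.

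All levels are log2 intensities of a probe set. Intensities under 11.7 (3.55 on the log2 scale) were set to that floor, and a gene with several probe sets is represented by its brightest one unless another is named. Probe sets differ in brightness, so levels are compared only between groups for 1 probe set. A gene was called higher or lower when the adjusted p of limma was under 0.05 and the difference over 2-fold. The arrays of SS tumors 24 and 29 differed by an SD of 0.121 on the log2 scale, within the 0.104 to 0.150 of array pairs of the same tissue mix, so they were counted as 1 sample, which leaves 11 SS samples. Signs of RNA quality set the SS tumors apart. The 3′ to 5′ log2 ratio of *Gapdh* averaged 0.849 (0.326 to 1.432) in SS arrays and 0.057 in SS214 arrays, with means from -0.175 to 0.060 in the other groups. One array, SS40 with *miR-214* replicate 4, stood apart from its group, with a correlation of 0.9833 with the mean of SS40 NC against 0.9941 to 0.9956 for the other 3. The tumors were bulk tissue. As the mean log2 level of a list, markers of skeletal muscle (8 measured) were at 9.14 to 10.94 in SS tumors, 5.94 to 6.00 in empty vector eMCs and 4.43 to 4.74 in the NC lines, and markers of mural cells (3 measured) at 7.29 to 8.19, 5.38 to 5.72 and 4.53 to 5.01 in the same groups. Markers of cartilage (6 measured) were at 11.26 to 11.30 in empty vector eMCs and 10.03 to 10.13 in *SS18-SSX1* eMCs. They were at 4.64 to 4.90 in SS tumors and 3.91 to 4.25 in the NC lines. The part of these cell types in the T-box levels of the tumors, eMCs and lines was not tested. In such tissue, fewer cells of a type and less RNA per cell cannot be told apart.

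By the brightest probe sets, *Tbx2* and *Tbx3* were the T-box genes that separated SS tumors most from eMCs, by 20.2-fold and 12.3-fold relative to empty vector eMCs and by 16.5-fold and 8.08-fold relative to *SS18-SSX1* eMCs. For *Tbx3* this rank rests on that probe set. A further one gave 5.45-fold and 3.80-fold, where *Tbx20* gave 5.32-fold and 5.01-fold. *Tbx18* was 4.08-fold lower in SS tumors than in *SS18-SSX1* eMCs. *Tbx18* and *Tbx20* were highest in the SS40 line, and *Tbx18* was lower in SS tumors than in both eMC groups. *Tbx4* and *Tbx5*, the limb-type genes, were dim in every eMC, tumor and line group. Against empty vector eMCs, 5 members were called higher in SS tumors (*Tbx1*, *Tbx2*, *Tbx3*, *Tbx15* and *Tbx20*) and 1 lower (*Tbx18*), where 23.2% of all genes tested were called, 14.5% higher and 8.71% lower. The same members were called in the same directions against *SS18-SSX1* eMCs, where 22.8% of genes were called, 12.9% higher and 9.94% lower. Against the tissue mix 4 were called higher (*Tbx1*, *Tbx2*, *Tbx3* and *Tbx20*) and 0 lower, with 24.7% of genes called, 11.1% higher and 13.6% lower. All 3 comparisons use the same SS arrays, so their counts are not independent. With the *Gapdh* ratio as a covariate, chosen after the data had been seen, these counts were 5 and 5 against the eMC groups, without *Tbx15*, and 4 against the tissue mix, and the differences of *Tbx1* (2.33) and *Tbx18* (-2.03) from empty vector eMCs, and of *Tbx1* (2.40) and *Tbx3* (2.19) from the tissue mix, were over 1.5 times as large as those given in what follows. The ratio was 0.326 to 1.432 in SS arrays and at most 0.072 in the eMCs and the tissue mix. These ranges did not overlap, so the covariate fits cannot separate RNA quality from group. The median difference over the 8 members was 1.39 against empty vector eMCs and 1.19 against the tissue mix, beside -0.04 and 0.06 over all genes tested.

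**Figure D1:**
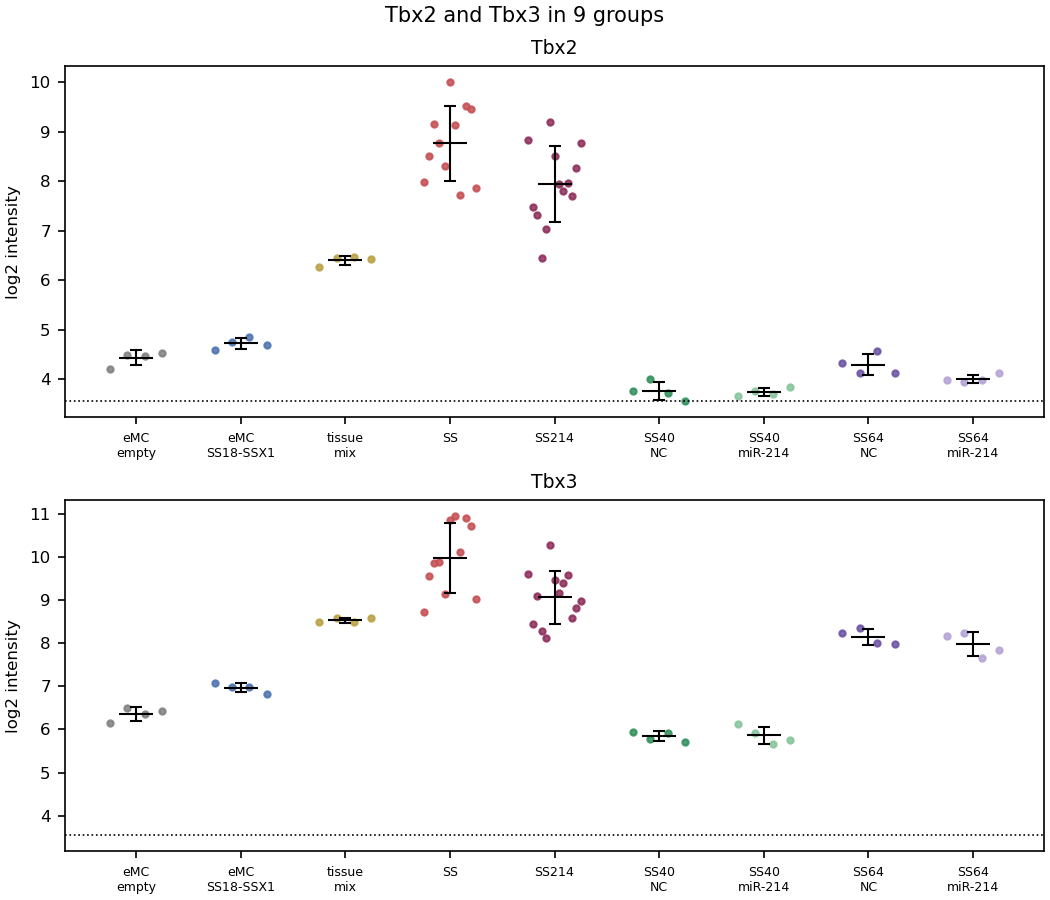
Log2 intensity of Tbx2 (upper panel) and Tbx3 (lower panel) on the vertical axes in the 9 groups on the horizontal axes. Points are samples, bars the mean and SD, and the dotted line the floor of 3.55. All 11 SS tumors lie above the tissue mix and the eMCs for both genes, while SS40 and SS64 part for Tbx3 (means of 5.84 and 8.14 with NC).

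*Tbx2* read 4.21, 4.50, 4.47 and 4.54 in the 4 empty vector eMC arrays, and 4.59, 4.75, 4.86 and 4.69 in the *SS18-SSX1* eMC arrays. In SS tumors its lowest, median and highest levels were 7.73, 8.78 and 10.00, and in SS214 tumors 6.45, 7.95 and 9.20. Every tumor thus lay above every eMC array. The tissue mix read 6.27, 6.44, 6.47 and 6.43, under every SS tumor and overlapping the lowest SS214 tumor. SS64 cells with NC read 4.33, 4.13, 4.57 and 4.13, and SS40 cells with NC 3.76, 3.99, 3.71 and 3.55, close to the floor. The lines thus had *Tbx2* levels that overlapped those of the empty vector eMCs or lay below them. The difference between tumors and lines was not tested.

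In numbers, *Tbx2* was higher in SS tumors than in empty vector eMCs by 4.34 ± 0.35 (SE, log2; limma adjusted p = 1.43e-08). It was higher than in the tissue mix by 2.36 ± 0.35, or 5.15-fold (limma adjusted p = 2.08e-05). At 48 h after the fusion gene was delivered, the difference between eMC groups was 0.29 ± 0.09, or 1.23-fold, with groups that did not overlap (limma adjusted p = 0.0161), which was under 2-fold and not called. The order of the group means ran from SS, SS214, tissue mix, *SS18-SSX1* eMCs and empty vector eMCs to SS64 NC, SS64 *miR-214*, SS40 NC and SS40 *miR-214*. Neighbours in this order overlapped except tissue mix against *SS18-SSX1* eMCs, the 2 eMC groups and the 2 SS64 groups.

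*Tbx3*, the close relative of *Tbx2*, was bright in more groups. The empty vector eMCs read 6.14, 6.49, 6.35 and 6.44, and the *SS18-SSX1* eMCs 7.07, 6.98, 6.98 and 6.82. SS tumors ran from 8.73 through a median of 9.88 to 10.95, and SS214 tumors from 8.12 through 9.10 to 10.28. The tissue mix read 8.48, 8.58, 8.48 and 8.59, so that SS tumors cleared it and SS214 tumors overlapped it. In SS64 NC the levels were 8.23, 8.36, 7.99 and 7.97, and in SS40 NC 5.95, 5.79, 5.93 and 5.70. SS64 thus lay between the tissue mix and the eMCs, and SS40 below both eMC groups.

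SS tumors had 3.62 ± 0.37 more *Tbx3* than empty vector eMCs (SE, log2; limma adjusted p = 2.8e-07) and 1.44 ± 0.37 more than the tissue mix, 2.72-fold (limma adjusted p = 0.00338). The eMC groups differed by 0.61 ± 0.08, 1.52-fold, and did not overlap (limma adjusted p = 1.28e-05), again under 2-fold. SS64 NC exceeded empty vector eMCs by 1.78, 3.44-fold (limma adjusted p = 2.13e-09), and SS40 NC by 2.30, 4.92-fold (limma adjusted p = 1.57e-08). The brightest *Tbx3* probe set is of a kind (its name ends in x_at) whose probes can match other transcripts. For SS tumors, a further *Tbx3* probe set gave 2.45 relative to empty vector eMCs and 1.45 relative to the tissue mix, both called, and 0.52 between the eMC groups. It read 0.96 for SS64 against SS40, 1.95-fold, and 0.25 for SS40 against empty vector eMCs (limma adjusted p = 0.122), where the brightest gave -0.51 (limma adjusted p = 0.0012). The direction in SS40 thus differed between the probe sets. The last *Tbx3* probe set was at the floor on every array.

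Within each kind of tumor, *Tbx2* and *Tbx3* varied together by Pearson's r. It was 0.79 in the 11 SS samples (permutation p = 0.00562, adjusted p = 0.0281) and 0.78 in the 13 SS214 tumors (permutation p = 0.00174, adjusted p = 0.0174). Spearman's rho was 0.67 in the SS samples, which did not pass (permutation p = 0.027, adjusted p = 0.108). In SS214 tumors rho was 0.78 (permutation p = 0.00237, adjusted p = 0.0237). Further permutation p-values are those of r, also where rho stands beside them, unless given as a p of rho. Without the 2 samples farthest from the median of *Tbx2*, r was 0.93 and 0.62. SS214 tumors 13 to 16 held the lowest *Tbx2* levels of their group, 6.45 to 7.47, and tumors 1 to 9 ran from 7.71 to 9.20. For *Tbx3*, tumors 13, 15 and 16 were lowest (8.46, 8.29 and 8.12), while tumor 14 read 9.10. The part of these tumors in the r of SS214 tumors was not tested. *Tbx18* split the SS samples, with 3 at 3.97 to 4.07 and the other 8 at 4.62 to 5.44, so no r over all SS samples is given for it. The 3 with little *Tbx18* had *Tbx3* at 10.72 to 10.95 and *Tbx2* at 9.13 to 10.00, and the 8 with more had *Tbx3* at 8.73 to 10.91 and *Tbx2* at 7.73 to 9.52, so the ranges overlapped for both genes. Within these 8, r of *Tbx18* was -0.62 with *Tbx3* (rho -0.33, exact permutation p = 0.124, adjusted p = 0.165) and -0.55 with *Tbx2* (rho -0.26, exact permutation p = 0.184, adjusted p = 0.184), and neither passed. Within the same 8, r of *Tbx2* with *Tbx3* was 0.67 (rho 0.45, exact permutation p = 0.0729, adjusted p = 0.146), which did not pass. A test of only 8 samples has less power, so this does not show that the relation in SS tumors depended on those 3 samples. In SS214 tumors *Tbx18* had an r of -0.48 with *Tbx3* and -0.54 with *Tbx2* (permutation adjusted p = 0.196 and 0.133). *Pitx1*, the hindlimb gene, went with *Tbx2* in SS tumors (r 0.87, rho 0.85, permutation p = 0.00077, adjusted p = 0.0154, 0.93 without the 2 farthest) and reached 0.54 in SS214 tumors (permutation adjusted p = 0.133). These pairs belong to a family of 20 relations, and those within the 8 samples to a family of 4, all chosen after the data had been seen. The *Gapdh* ratio had an r of -0.17 with *Tbx2* and -0.39 with *Tbx3* in SS tumors, neither past adjustment (permutation adjusted p = 0.643 and 0.325).

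**Figure D2:**
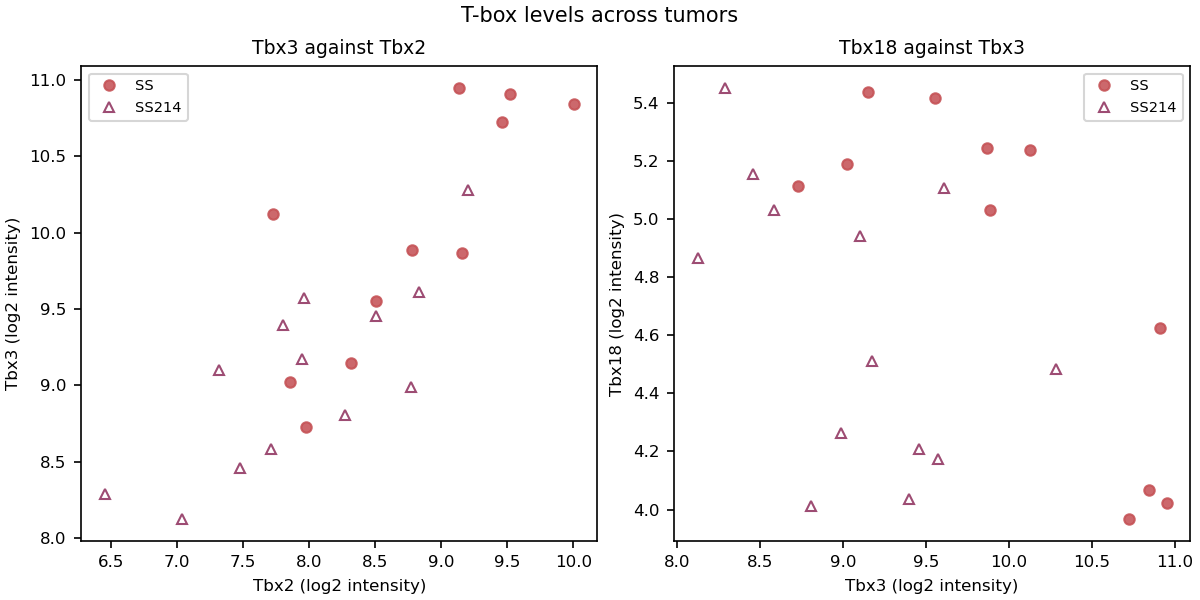
Log2 intensity of Tbx3 against Tbx2 (left) and of Tbx18 against Tbx3 (right), each point 1 tumor sample, filled circles for the 11 SS samples and open triangles for the 13 SS214 tumors. Tbx3 rises with Tbx2 in both kinds of tumor (r 0.79 and 0.78), and 3 SS samples with Tbx18 at 3.97 to 4.07 have Tbx3 at 10.72 to 10.95.

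Of the limb-type genes, *Tbx5* gave no call in any of the 12 comparisons. Its level in the tissue mix was 4.75, 4.95, 4.84 and 4.93, and group means elsewhere lay from 4.40 to 4.56. SS tumors ran from 3.82 to 5.71 with a median of 4.39, the widest spread of any group. The other *Tbx5* probe set had group means of 3.55 to 3.79. Among 10 planned relations between *Tbx2*, *Tbx3*, *Tbx4*, *Tbx5* and *Pitx1*, 1 passed adjustment by Pearson's r: *Tbx5* went with *Tbx3*, its chromosome neighbour, in SS tumors (r 0.75, rho 0.85, permutation p = 0.00187, adjusted p = 0.0187, 0.76 without the 2 farthest). Within the 8 SS samples with more *Tbx18* r was 0.90 (rho 0.86, exact permutation p = 0.00561, adjusted p = 0.0224). In SS214 tumors r was 0.60 (rho 0.60, permutation p = 0.0303, adjusted p = 0.115). By Spearman's rho, *Tbx5* with *Tbx3* in SS tumors also passed (adjusted permutation p of rho = 0.0155). So did *Tbx5* with *Pitx1* in SS214 tumors (rho 0.70, adjusted permutation p of rho = 0.0488), where r was 0.58 and did not pass (permutation adjusted p = 0.115).

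The 2 *Tbx4* probe sets did not give the same picture. The one with the higher mean over all arrays had group means of 3.92 to 4.15 and no call. The other read 6.62, 6.63, 6.65 and 6.40 in the tissue mix, 4.44, 4.94, 4.77 and 4.49 in empty vector eMCs and 4.68, 4.78, 4.75 and 4.62 in *SS18-SSX1* eMCs. It averaged 3.69 ± 0.15 in SS tumors (SD, n = 11), where 8 of 11 were above the floor, and 3.60 in SS214 tumors. In SS40 NC and in SS64 NC 1 of 4 arrays was above the floor. By this probe set *Tbx4* was different in SS tumors from the tissue mix by -2.88 ± 0.09 and from *SS18-SSX1* eMCs by -1.02 ± 0.08, 2.02-fold (SE, log2; limma adjusted p = 1.75e-14 and 1.09e-08). Against empty vector eMCs the differences were -0.97 for SS tumors, just under 2-fold, and -1.11 for each line (limma adjusted p = 2.15e-07, 3.59e-06 for SS40 and 4.5e-07 for SS64). With this probe set at the floor in 3 of 11 SS samples and on 3 of 4 arrays of each line, the sizes of these differences are set in part by the floor.

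**Figure D3:**
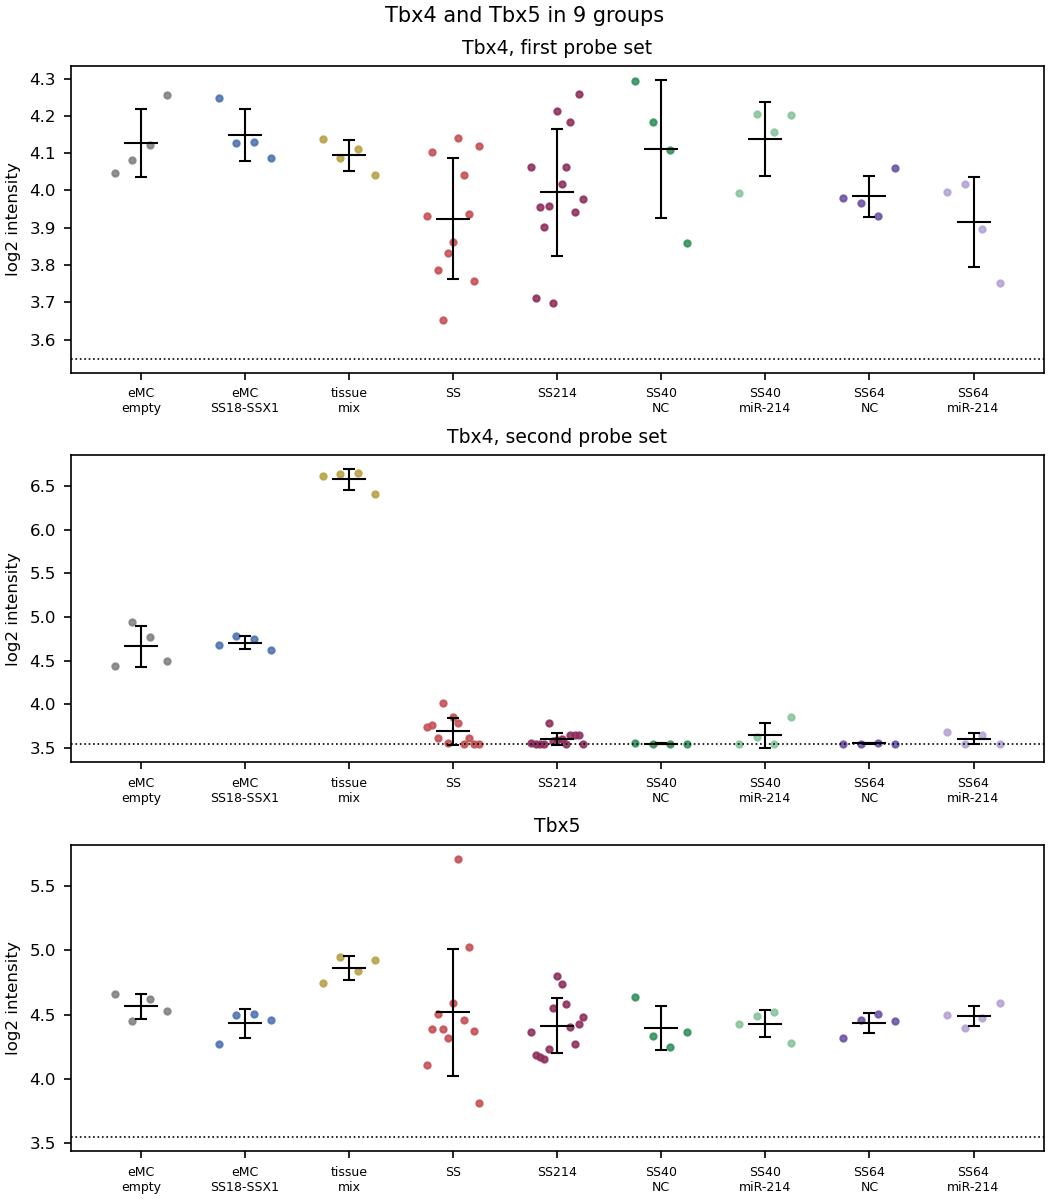
Log2 intensity of the 2 Tbx4 probe sets and of the brightest Tbx5 probe set (vertical axes) in the 9 groups, with points for samples, bars for mean and SD and a dotted line for the floor of 3.55. The second Tbx4 probe set has a mean of 6.57 in the tissue mix, 4.66 in empty vector eMCs and 3.69 in SS tumors.

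*Tbx15* was highest in tumors. SS tumors ran from 6.64 through a median of 7.93 to 8.44, and SS214 tumors from 6.42 through 7.79 to 8.85. Empty vector eMCs read 6.36, 6.49, 6.52 and 6.50, and *SS18-SSX1* eMCs 6.36, 6.51, 6.37 and 6.58, so that the eMC groups overlapped almost fully. The tissue mix read 6.86, 6.80, 6.96 and 6.84, within the range of the tumors. SS tumors were above empty vector eMCs by 1.32 ± 0.23, 2.51-fold (SE, log2; limma adjusted p = 0.000103), and their difference from the tissue mix, 0.93 ± 0.23, was 1.90-fold and not called (limma adjusted p = 0.00276). In SS tumors *Tbx15* had an r of 0.63 with the *Gapdh* ratio (rho 0.69, permutation p = 0.0302, adjusted p = 0.101, 0.25 without the 2 farthest), which did not pass adjustment, and in SS214 tumors r was -0.16 (rho -0.24, permutation p = 0.611, adjusted p = 0.643). With that ratio as a covariate, chosen after the data had been seen, the difference from empty vector eMCs was 0.54 and that from *SS18-SSX1* eMCs 0.41, and neither passed (limma adjusted p = 0.194 and 0.427). The ratio did not overlap between SS tumors and either eMC group, so this fit cannot separate RNA quality from group. The part of RNA quality in the result thus remains untested.

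In the lines *Tbx15* read 6.73, 6.58, 6.74 and 6.90 for SS40 NC and 5.92, 5.67, 5.94 and 5.97 for SS64 NC. SS64 was lower by 0.86 ± 0.10, 1.82-fold (SE, log2; limma adjusted p = 3.23e-05). The second *Tbx15* probe set was dim, with group means of 3.67 to 4.25, and gave 0.09 for SS tumors against empty vector eMCs (limma adjusted p = 0.592).

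*Tbx18* went the other way between eMCs and tumors. The empty vector eMCs read 6.50, 6.15, 5.76 and 6.21 and the *SS18-SSX1* eMCs 6.76, 6.83, 6.94 and 6.99, without overlap. SS tumors ran from 3.97 through 5.11 to 5.44 and SS214 tumors from 4.01 through 4.51 to 5.45, all under the lowest eMC array. The tissue mix read 3.91, 4.21, 4.11 and 4.01. SS40 NC was at 7.84, 7.74, 7.79 and 7.84, and SS64 NC at 7.14, 6.89, 7.19 and 7.22, above all eMC arrays with the exception of SS64 replicate 2, which overlapped the *SS18-SSX1* eMCs. The lines and the tumors thus lay on opposite sides of the eMCs.

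Relative to empty vector eMCs, *Tbx18* fell by 1.30 ± 0.28 in SS tumors, 2.47-fold (SE, log2; limma adjusted p = 0.000696), and rose by 1.65 ± 0.13 in SS40 NC, 3.14-fold (limma adjusted p = 7.36e-07). In SS64 NC it differed by 0.96 ± 0.13, 1.94-fold (limma adjusted p = 2.47e-05), and without SS64 replicate 2 or empty vector replicate 1 the difference passed 2-fold, at 1.03 and 1.07. The eMC groups differed by 0.73 ± 0.12, 1.65-fold (limma adjusted p = 0.000108), and a call of 2-fold was not reached. The difference of SS tumors from *SS18-SSX1* eMCs was -2.03, 4.08-fold (limma adjusted p = 7.01e-06). The second *Tbx18* probe set gave 0.51 between the eMC groups, -0.70 for SS tumors and 1.47 for SS40 against empty vector eMCs, and -1.21 for SS tumors against *SS18-SSX1* eMCs, each in the same direction. Markers of mural cells, which *Tbx18* also marks, rose in 2 of 3 tested between empty vector and *SS18-SSX1* eMCs, and endothelial markers in 5 of 6 (*Tie1* was at the floor on all empty vector arrays). Of all genes tested between these groups, 3.66% were called in either direction. In SS40 and SS64, where *Tbx18* was highest, mural markers averaged 4.53 to 5.24. The part of mural and endothelial cells in the *Tbx18* result was not tested.

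**Figure D4:**
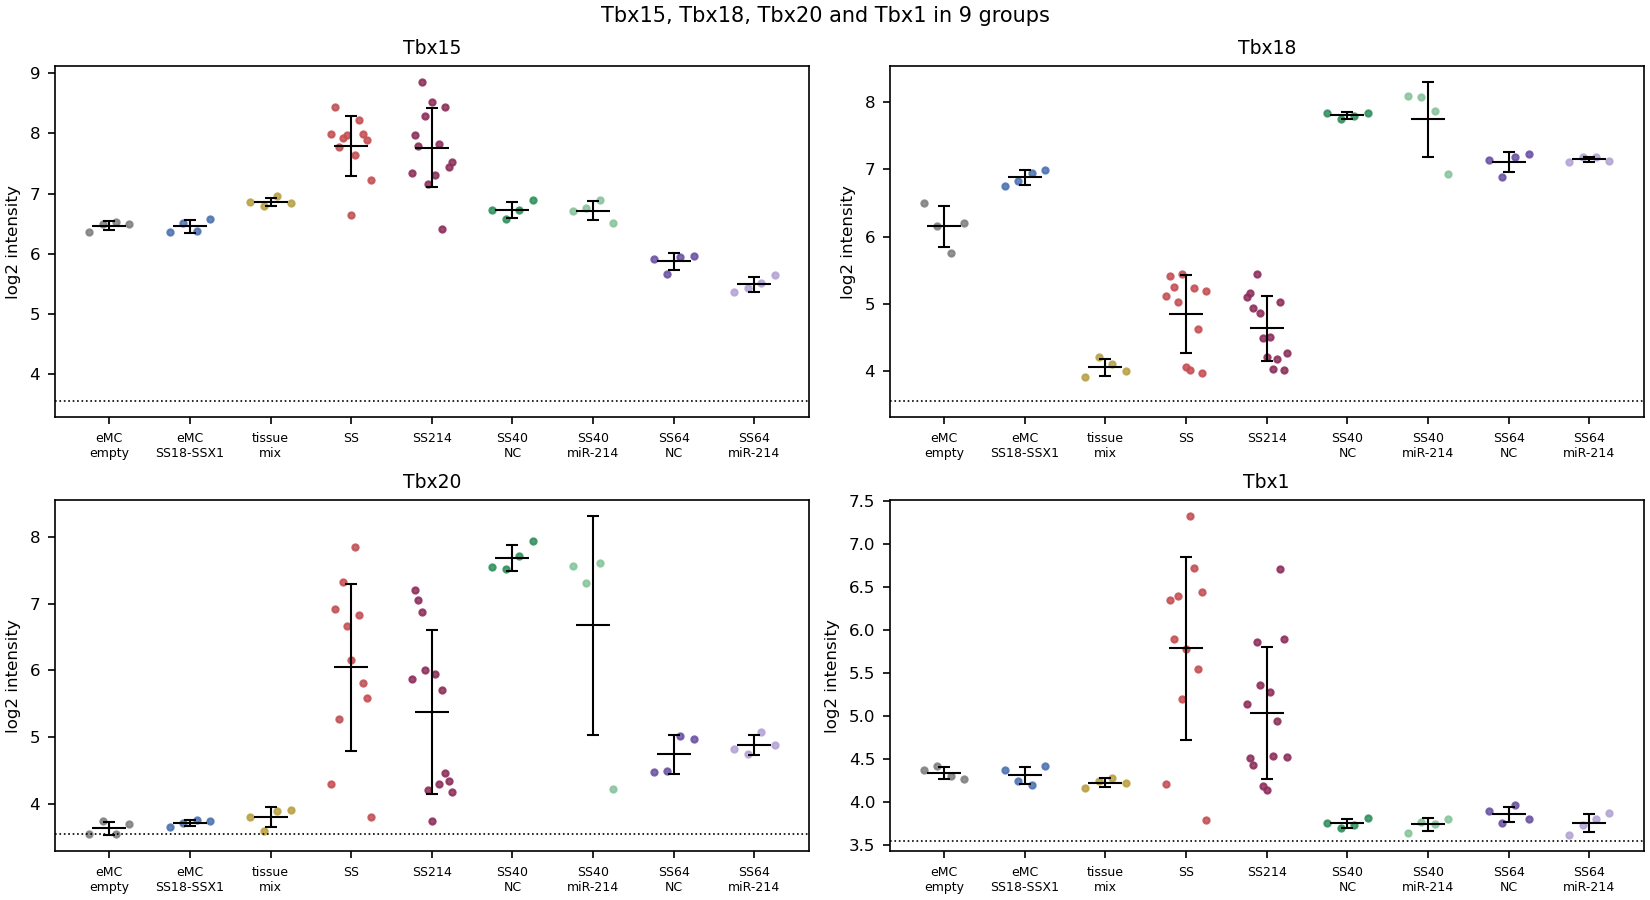
Log2 intensity of Tbx15, Tbx18, Tbx20 and Tbx1 (vertical axes) in the 9 groups, with points for samples, bars for mean and SD and a dotted line for the floor of 3.55. Tbx18 is lowest in the tissue mix and the tumors and highest in SS40, and 1 SS40 array with miR-214 reads 4.22 for Tbx20 beside 7.30 to 7.60 for the other 3.

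*Tbx20* was near the floor in both eMC groups and in the tissue mix. The empty vector eMCs read 3.55, 3.74, 3.55 and 3.70, the *SS18-SSX1* eMCs 3.66, 3.72, 3.76 and 3.75, and the tissue mix, which included heart, 3.81, 3.60, 3.90 and 3.91. SS40 NC read 7.54, 7.52, 7.72 and 7.94, and SS64 NC 4.48, 4.50, 5.02 and 4.97. SS tumors spread from 3.81 through 6.15 to 7.85, and SS214 tumors from 3.75 through 5.71 to 7.20. SS tumors thus ranged from just above the eMCs to the level of SS40, and the lowest SS214 tumor was within the range of the *SS18-SSX1* eMCs.

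*Tbx20* rose by 4.05 ± 0.11 in SS40 NC, 16.5-fold (SE, log2; limma adjusted p = 1.23e-10), and by 1.11 ± 0.12 in SS64 NC, 2.16-fold (limma adjusted p = 3.31e-06), relative to empty vector eMCs. The SS64 call ended with a higher floor (0.59) and with 1 fit of all 9 groups (limma adjusted p = 0.208). In SS tumors it was higher than in empty vector eMCs by 2.41 ± 0.57 (limma adjusted p = 0.00154) and than in the tissue mix by 2.24 ± 0.58 (limma adjusted p = 0.00334). Since the eMCs and the tissue mix read at or near the floor, the size of these folds depends on it. Other *Tbx20* probe sets were dim, with group means of 3.58 to 4.14 and of 3.57 to 4.85, and the brighter of them gave 0.76 for SS40 against empty vector eMCs (limma adjusted p = 0.000756), 0.46 for SS tumors (limma adjusted p = 0.0314) and 0.12 for SS64 (limma adjusted p = 0.274). Genes of heart muscle stood at a mean of 4.19 to 4.29 in SS40 NC and 5.47 to 5.52 in SS64 NC, and *Nppa* was at the floor on every array.

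*Tbx1* also varied widely among tumors. Its SS levels ran from 3.79 through 5.89 to 7.33, and its SS214 levels from 4.14 through 4.94 to 6.71. Empty vector eMCs read 4.38, 4.42, 4.30 and 4.26, *SS18-SSX1* eMCs 4.37, 4.25, 4.20 and 4.42 and the tissue mix 4.16, 4.24, 4.28 and 4.22, within the range of the tumors. SS40 and SS64 group means were 3.74 to 3.85. *Tbx1* was higher in SS tumors than in empty vector eMCs by 1.45 ± 0.49 (SE, log2; limma adjusted p = 0.0162) and than in the tissue mix by 1.56 ± 0.49, 2.96-fold (limma adjusted p = 0.0125), but the groups overlapped in each. The lines were lower than empty vector eMCs by 0.59 and 0.49, under 2-fold (limma adjusted p = 9.79e-06 for SS40 and 5.3e-05 for SS64).

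Delivery of *SS18-SSX1* alone gave 0 member calls at 48 h, where 3.66% of genes tested were called. By the adjusted p alone, 3 members were higher (*Tbx2*, *Tbx3* and *Tbx18*, all named earlier) and 0 lower, in a comparison in which 48.9% of genes passed. Against empty vector eMCs, 2 members were called higher in SS40 NC (*Tbx18* and *Tbx20*, with 17.2% of genes called, 8.7% higher) and 2 in SS64 NC (*Tbx3* and *Tbx20*, with 16.1% called, 7.46% higher), and 0 lower in either by the brightest probe sets. Between the lines 2 members were called, *Tbx3* higher and *Tbx20* lower in SS64 (-2.94 ± 0.15, 7.66-fold; limma adjusted p = 3.95e-08), where 12.4% of genes were called, 6.34% higher and 6.02% lower. Without the fusion gene, empty vector eMCs differed from the tissue mix, by the brightest probe sets, in 3 members. They were *Tbx18* (higher by 2.09, 4.27-fold), *Tbx2* and *Tbx3* (-1.97 and -2.18), with 28.1% of genes called, 10.7% higher and 17.3% lower. The second *Tbx4* probe set was also lower in these eMCs than in the tissue mix (-1.91, 3.76-fold; limma adjusted p = 1.09e-10). By the adjusted p alone 6 members passed in this comparison, 6 in SS40, 5 in SS64 and 5 between the lines, where 82.9%, 58.6%, 60.9% and 48.5% of genes passed. The empty vector arrays enter each of these comparisons except that between the lines.

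**Figure D5:**
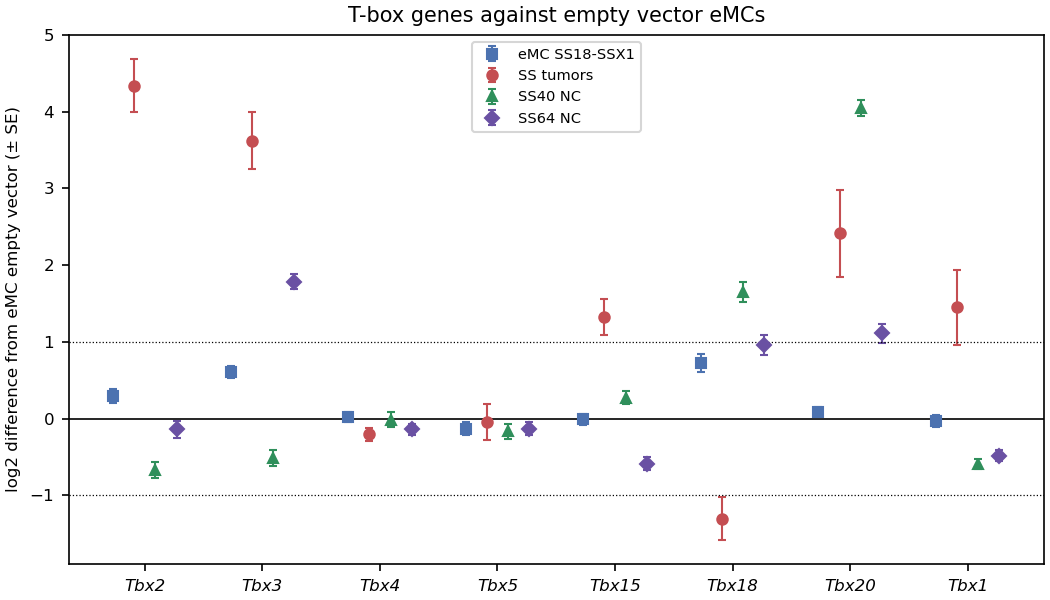
Log2 difference from empty vector eMCs (vertical axis, bars of 1 SE from limma, dotted lines at 2-fold) of the 8 T-box genes for SS18-SSX1 eMCs, SS tumors and the SS40 and SS64 NC lines. SS tumors stand out for Tbx2 (4.34) and Tbx3 (3.62), and SS40 for Tbx20 (4.05), while Tbx4 and Tbx5 stay near 0 by these probe sets.

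Neither line nor tumors gave a call for *miR-214*. SS214 tumors differed from SS tumors in 0 members, with 2.04% of genes called, and by the adjusted p alone *Tbx2* (-0.82 ± 0.30, 1.77-fold; limma adjusted p = 0.0297) and *Tbx3* (-0.91 ± 0.27, 1.88-fold; limma adjusted p = 0.01) were lower, where 38.8% of genes passed. Both groups overlapped for both genes. SS214 tumors 13 to 16 held the lowest *Tbx2* levels of their group (6.45 to 7.47). The part of these tumors in the differences was not tested. Genes of lung epithelium ran from 3.77 to 9.17 in SS214 tumors and from 3.60 to 4.53 in SS tumors. With their mean as a covariate, chosen after the data had been seen, the differences were -0.37 and -0.57 (limma adjusted p = 0.347 and 0.131), and with the *Gapdh* ratio -0.90 and -1.56 (limma adjusted p = 0.409 and 0.098). That ratio was 0.326 to 1.432 in SS arrays and -0.045 to 0.483 in SS214 arrays. With so little overlap, the fit that holds it separates RNA quality from group poorly. In SS40 cells 0 members were called, with 0.201% of genes called. In SS64 cells 0 were called, with 0.24% of genes called, and *Tbx15* was the 1 member to pass the adjusted p, which 12.9% of genes passed: 5.37, 5.43, 5.52 and 5.66 with *miR-214* against 5.92, 5.67, 5.94 and 5.97 with NC. These ranges only just failed to overlap, with a difference of -0.38 ± 0.10, 1.30-fold (limma adjusted p = 0.0312, arrays not paired). The adjusted p of limma was 0.0576 to 0.0906 when any single array other than NC replicate 2 or *miR-214* replicate 4 was left out. A direct test of whether the effect on *Tbx15* differed between the lines gave -0.37 ± 0.15 (limma adjusted p = 0.479), and 0 members were called in that test, with 0.24% of genes called. In SS40 the largest difference was that of *Tbx20*, -1.01 ± 0.65 (limma adjusted p = 0.706), which rested on replicate 4 with *miR-214* (4.22, the other 3 at 7.56, 7.30 and 7.60). On that array the other *Tbx20* probe sets read 4.84 and 4.50, beside 4.59 to 5.04 and 3.87 to 4.11 on the other 3, and *Tbx18* read 6.92 by one probe set and 6.39 by the other, beside 7.87 to 8.09 and 6.05 to 6.33. The low value was therefore seen with 1 probe set of each gene and not with the others.

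Other genes of the family were mostly dim. Of 7 measured, *Tbx6*, *Tbx19*, *Tbx21* and *Tbx22* had group means under 4.00 throughout, and *Tbr1* exceeded the floor as a group mean only in the tissue mix (4.39). *Mga*, which encodes a T-box protein that also pairs with Max, was higher in SS tumors than in the tissue mix by 1.32 (limma adjusted p = 2.41e-07) and *Eomes* by 1.06 (limma adjusted p = 5.75e-05), which made 2 of 6 tested. Against empty vector eMCs 0 of 5 tested were called. Of all genes tested, 11.1% were higher and 13.6% lower against the tissue mix, and 23.2% were called against empty vector eMCs.

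Among 19 measured genes of the limb programme, 13 of 16 tested were higher in SS tumors than in the tissue mix and 0 lower, with a median of 1.76 beside 0.06 over all genes, of which 11.1% were higher and 13.6% lower. Against empty vector eMCs 7 of 16 were higher and 1 lower, with a median of 0.86 beside -0.04, where 14.5% of all genes tested were higher and 8.71% lower. *Pitx1*, upstream of *Tbx4* in the hindlimb, averaged 8.24 in SS tumors against 4.77 in empty vector eMCs, higher by 3.48 (limma adjusted p = 8.86e-08), while *Tbx4* itself was not higher by either probe set. *Hoxd13*, a gene of the distal limb, was higher by 3.46, *Sall1*, a zinc finger gene at the floor on all 4 empty vector arrays, by at least 3.30 and *Hoxc10*, of the posterior trunk and hindlimb, by 2.57, whereas *Grem1*, a BMP antagonist, was lower by 1.31. *Pitx1* was at 6.96 in SS40 NC and 4.45 in SS64 NC. *Hoxd13*, in turn, was at 4.62 and 6.74.

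Of 10 measured cardiac partners and targets, 3 of 9 tested were higher in SS tumors than in empty vector eMCs and 0 lower, where 14.5% of all genes tested were higher and 8.71% lower. They were *Smarcd3*, a chromatin remodelling subunit (2.78), *Mef2c*, a muscle transcription factor (2.32), and *Irx4*, a homeobox gene of the ventricle (1.09). *Nppb*, which encodes a natriuretic peptide and is a known T-box target, averaged 10.28 in SS64 NC, 5.02 in SS40 NC and 4.41 in empty vector eMCs. *Tbx20* was higher in SS40 than in SS64 and *Nppb* higher in SS64. The median over the list was -0.07 in SS tumors against empty vector eMCs, beside -0.04 over all genes.

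Genes known to be repressed by *Tbx2* or *Tbx3* did not share 1 direction. Against empty vector eMCs, *Gja1*, a gap junction protein, was lower in SS tumors by 2.96 and *Ndrg1*, a stress-response gene, by 1.17, and *Cdh1*, the epithelial cadherin, at the floor on all 4 empty vector arrays, was higher by at least 2.07, which made 2 lower and 1 higher of 5. Of all genes tested in this comparison, 8.71% were lower and 14.5% higher. *Cdkn2a*, the cell cycle inhibitor locus, was at 6.12 in empty vector eMCs, 4.22 in *SS18-SSX1* eMCs (-1.90; limma adjusted p = 2.34e-11), 6.63 in SS tumors, 11.25 in SS40 NC and 10.42 in SS64 NC. *Cdkn1a* differed from empty vector eMCs by -2.99 in SS40 and -1.76 in SS64.

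As a description of similarity, the genes whose 9 group means correlated best with those of each member are named here, with no test, since the points share libraries. For *Tbx2* they were *Ccdc149* (r 0.9974), *Chn2* (0.9965) and *Slc4a3* (0.993), and for *Tbx3* *Zfc3h1* (0.9927), *Bhlhe40* (0.99) and *Kctd13* (0.9861). For *Tbx15* they were *Bbs2* (0.987), *Galt* (0.9774) and *Shfl* (0.9773), and for *Tbx18* *Aaas* (0.9893), *Nup205* (0.9876) and *Ptgr1* (0.9873). For *Tbx20* they were *Nrg1* (0.9927), *9930104L06Rik* (0.9774) and *Fam53a* (0.9765), and for *Tbx1* *Tbc1d32* (0.9934), *Rnf31* (0.9876) and *Mtus2* (0.9874). The group means of *Tbx4* and *Tbx5* spanned only 0.23 and 0.47, too little to be ranked in this way.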

How the data were processed

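RNA of eMCs, tumors, lines and a pool of normal tissues was hybridised to whole-transcriptome mouse arrays, 1 array per sample. The authors deposited linear intensity values per probe set, summarised by MAS5 per the submitters' processing notes, with GeneSpring named in the methods. Of 45141 probe sets, 104 controls were left out, 28898 had 1 symbol in the platform annotation, updated through RefSeq (GRCm38.p6), and 551 had several. No value column belonged to a sample outside the series (0).

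Intensities were raised to a floor of 11.7, the median of the arrays' 20th percentiles, and log2 transformed. Probe sets above the floor on at least 4 arrays of a comparison were tested with limma 3.58.1 (R 4.3.3, intensity trend, Benjamini-Hochberg over all of them), and the probe set with the highest mean stood for its gene. SS tumors 24 and 29 were averaged, leaving 52 samples of 53. Genes with an adjusted p under 0.05 and a fold over 2 were called. Correlations used 100000 permutations (Python 3.11.15, scipy 1.17.1, pandas 2.3.3), and figures were drawn with matplotlib 3.10.9. The number of arrays limits the precision.

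The members and gene lists were chosen with earlier results of these data known. The text names all 8 members, up to 4 genes per list with the largest called change in a comparison, and the 3 genes with the most similar group means for members spanning over 2 log2 units. Genes named beside a member for their levels in other groups were chosen after their values were seen. Same-numbered SS64 arrays with *miR-214* and NC deviated together (r 0.221 to 0.3457). Yet *miR-214* replicates 1 and 3 went best with NC replicates 2 and 4. The main fits did not pair arrays, and a replicate block was used only as an alternative. In a test on simulated data for SS tumors against the tissue mix, with 200 of 38098 probe sets changed 3-fold, 189 were recovered. The changed probe sets were drawn only from those well above the floor in the tissue mix. *Tbx1*, *Tbx4*, *Tbx5*, *Tbx18* and *Tbx20* were dimmer there than these, so this recovery does not cover them. Alternatives were another floor and normalization, other summaries of probe sets, 1 fit of all groups, a replicate block, left-out arrays and covariates.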

Additional observations from a re-analysis of the deposited data

Results flagged for a closer look

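Over 56 sets of member levels in the groups of 4 arrays, 2 held a value far from the others, where chance gives about 1 in 20. The tumor groups, of 11 and 13 samples, were not screened in this way. *Tbx15* read 5.67 in SS64 NC replicate 2, under the other 3 arrays of its group at 5.92 to 5.97. *Tbx20* read 4.22 in replicate 4 of SS40 with *miR-214*, where the other 3 arrays read 7.30 to 7.60.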

How the results depend on the processing

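Of 709 re-estimates of 48 member differences, 694 kept their direction and their side of the threshold, 12 lost the call, 2 gained one and 1 turned its direction. The one that turned was *Tbx20* in empty vector eMCs against the tissue mix, 0.0392 with the mean over its probe sets in place of -0.17. By the adjusted p alone, the number of members passing was 3 for *SS18-SSX1* against empty vector eMCs, 2 for SS214 against SS tumors, 1 for *miR-214* in SS64, 5 between the lines, 6 for SS40, 5 for SS64 and 6 for the tissue mix against empty vector eMCs. For SS64 against empty vector eMCs, 2 calls became 1 with the floor at the 40th percentile, 0 with the mean over probe sets and 1 with 1 fit of all 9 groups. With the lung genes as a covariate, SS214 against SS tumors gave 1 call (*Tbx20*, lower). With the mean over probe sets, *Tbx3* (0.97) and *Tbx20* (0.95) in SS tumors against the tissue mix fell under 2-fold, as did *Tbx15* (0.71) and *Tbx20* (0.91) against empty vector eMCs. For *Tbx3* this mean includes the probe set at the floor on every array, which makes its differences smaller. The other 2 *Tbx3* probe sets were each called in SS64 against empty vector eMCs (3.44-fold and 2.32-fold). Both were also called in SS tumors against the tissue mix (2.72-fold and 2.74-fold). Without SS64 NC replicate 2 or empty vector replicate 1, *Tbx18* was also called in SS64 against empty vector eMCs, making 3, and no other array left out moved a count of members. With a replicate block the pairing of SS64 arrays gave 0 members called for *miR-214*, and a block changed no other count. Numbers of SS40 arrays, with same-number correlations of -0.2815 to 0.4638, and of eMCs, 0.0113 to 0.1534, share only a number. The covariates, SS tumors 24 and 29 as 2 samples, and the closest arrays of each line averaged were chosen after the data had been seen, and the last 2 changed no count of members. Apart from the probe set at the floor in the mean of *Tbx3*, the causes were not tested. Levels near the floor limit *Tbx20* in eMCs and the tissue mix, *Tbx4* in tumors and lines, and *Tbx5*.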
